A study of Mus musculus with 2 samples.

Results

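The cells described here were fetal liver lymphoid progenitors picked from a sorted population by UMIs of 4 genes, Ly6d, Arpp21, Plac8 and Adgrg1, and by low UMIs of genes of more committed lineages. A cell counted when these 4 genes summed to at least 3 UMIs. It also had to stay below a limit for each of 5 other sums: B lineage (below 5), myeloid, erythroid or mast (below 10), NK or ILC1 (below 4), LTi or ILC3 (below 4) and ILC2 (below 4). Of 8583 fetal liver cells with at least 500 genes and at most 10% mitochondrial UMIs, 1165 met the rule, a share of 13.6% (exact binomial 95% interval 12.9 to 14.3). The same rule applied to adult bone marrow found 2047 of 7258 cells, or 28.2% (27.2 to 29.3), and these served as the counterpart throughout. Both libraries together held 15841 kept cells. The cells are called rule cells below, because the 4 genes chose them and their levels are therefore a description and not a finding.

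The study sorted α4β7-expressing lymphoid progenitors, which carry the gut-homing integrin α4β7 and the IL-7 receptor chain CD127, for droplet single-cell RNA sequencing. Fetal livers came from day E14.5 embryos and bone marrow from adults, all wild-type B6 mice without treatment. Both tissues went through the same gate, which kept lineage-negative cells positive for CD45, CD127 and α4β7 and negative for Flt3 and CD25. There was 1 library per tissue, under the same batch label, and the sources used here do not state how many animals were pooled. The labels put the age of both samples at 6 to 8 weeks, which cannot hold for embryos. With 1 library per tissue nothing could be tested between tissues, so every fold below compares those libraries and its interval covers counting error only. Tissue, age and library cannot be told apart.

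Early lymphoid progenitors lie between multipotent cells and the committed B, T and innate lymphoid lineages. E proteins, which bind CANNTG sites called E-boxes, drive the rearrangement genes Rag1 and Rag2 and much of the B and T programme, while Id2 opposes them and is needed for innate lymphoid cells. Ly6d marks the step at which common lymphoid progenitors in bone marrow lean toward B cells, Dntt encodes the polymerase that adds nucleotides at receptor joints and is known to be low in fetal lymphopoiesis, and the RNA-binding protein Lin28b with its Igf2bp targets marks fetal blood cells.

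Depth differed between the tissues. The fetal liver library held 91781395 UMIs in 8946 barcodes and the bone marrow library 30039931 UMIs in 7367 barcodes, and filtering removed 363 and 109 barcodes. The median fetal liver rule cell held 11243 UMIs from 2606 genes and the median bone marrow rule cell 5208 UMIs from 1607 genes, a 2.16-fold difference in UMIs. Levels are therefore given as CPM, the UMIs of a gene summed over a group per 1000000 UMIs of that group. Shares of cells with a UMI are given as counted and after each cell was thinned to 3000 UMIs, which left 1133 fetal liver and 1874 bone marrow rule cells and set aside 32 and 173 shallower ones. The libraries shared 19 barcodes, 3 of them among the fetal liver rule cells. In fetal liver rule cells 3 counts, the floor used for genes at 0 and, over the number of cells, for shares at 0, correspond to 0.211 CPM, and in bone marrow rule cells to 0.249 CPM.

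Plac8, a small cysteine-rich protein of myeloid and lymphoid progenitors, chose most of the cells. It had a UMI in 99.4% (98.8 to 99.8) of fetal liver rule cells and gave 90.5% of the UMIs of the 4 genes. Adgrg1, an adhesion G protein-coupled receptor also called GPR56, had a UMI in 363 cells (31.2%), Arpp21, a cyclic-AMP-regulated phosphoprotein, in 221 (18.97%) and Ly6d in 175 (15.02%). Plac8 was the only gene of the 4 with a UMI in 657 cells (56.4%), and 893 cells would have missed the rule without it. All 4 genes were present together in 51 cells, so the rule gathered a broad Plac8 population with a smaller Ly6d and Arpp21 population inside it. Among bone marrow rule cells the shares were 99.95% for Plac8, 17.8% for Adgrg1, 14.46% for Arpp21 and 21.5% for Ly6d, and 1294 cells (63.2%) had Plac8 alone. After thinning to equal depth the shares in fetal liver and bone marrow were 91.4% and 98.5% for Plac8, 12.3% and 9.23% for Adgrg1, 9.18% and 9.02% for Arpp21, and 10.1% and 16.9% for Ly6d. Plac8 is not particular to early progenitors in these data, since it also had a UMI in 100% of fetal liver B lineage cells, in 17.2% of cells that met none of the sums and in 9.38% of LTi or ILC3 cells (99.4%, 8.37% and 5.42% after thinning).

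**Figure D1:**
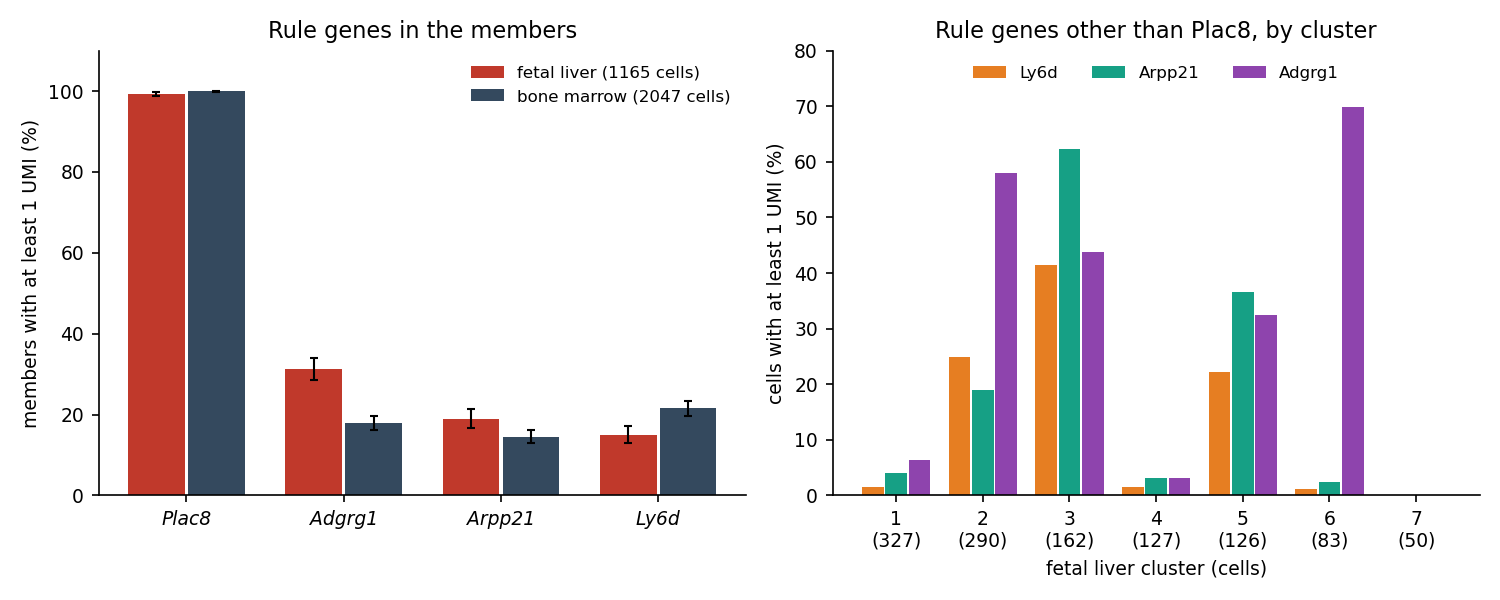
Left, percent of rule cells with at least 1 UMI of each rule gene in fetal liver (red) and bone marrow (dark), at full depth, bars being exact binomial 95% intervals. Right, percent of fetal liver rule cells with Ly6d, Arpp21 or Adgrg1 by cluster: Ly6d and Arpp21 are most frequent in cluster 3, at 41.4% and 62.3%.

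The median sum of the 4 genes was 17 UMIs in fetal liver rule cells and 9 UMIs in bone marrow rule cells. At the threshold, 106 fetal liver cells were just inside with a sum of 3 and 166 cells were just outside with a sum of 2, and their median UMIs per cell were close (9219 and 9062.5). Many cells were far from it, 622 of them (53.4%) having 15 UMIs or more. Of 2805 fetal liver cells with a sum of at least 3, the lineage limits removed 1640 (58.5%), while in bone marrow they removed 358 of 2405 (14.9%). Cells 1 UMI below a limit were most numerous for the ILC2 sum, against 31 for the myeloid, erythroid or mast sum, 18 for NK or ILC1, 10 for B lineage and 5 for LTi or ILC3.

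The label of early lymphoid progenitor held for only some of these cells. The 2 markers the rule did not use gave mixed evidence. Mef2c, a transcription factor of lymphoid priming, had a UMI in 42.7% of the fetal liver and 41.3% of the bone marrow rule cells (19.1% and 27.9% after thinning). Satb1, a chromatin organizer of lymphoid progenitors, had a UMI in 42.0% and 38.3% (16.4% and 24.0% after thinning). Both were less frequent in fetal liver LTi or ILC3 cells, where thinned shares were 5.96% for Mef2c and 5.05% for Satb1, and more frequent in fetal liver B lineage cells, where they were 81.0% and 20.1%. The cells were therefore split further without the rule and lineage genes, and only 1 of the 7 clusters had most of the early lymphoid markers raised.

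Cluster 1 was the largest, with 327 cells (28.1%), and 89.3% of them had Plac8 and no other rule gene. It was led by Ccl5, a chemokine of cytotoxic and innate lymphocytes, at 2870 CPM against 355 CPM in the other rule cells. Txk, a T and NK cell kinase, stood at 256 CPM against 50.5 CPM, Tnfrsf9, the costimulatory receptor 4-1BB, at 142 against 27.2 CPM, and Cck, a gut and brain peptide hormone gene, at 104 against 14.3 CPM. Of 8 innate lymphoid progenitor markers, 6 were at least 2-fold over the other rule cells: Zbtb16 (PLZF), Tox, Tox2, Pdcd1, Id2 and Il18r1. Icos, Gata3 and Rxrg of the ILC2 markers and Cd3d, Cd3g and Tcf7 of the T lineage markers were raised too, and since none of the ILC progenitor markers was among its 10 leading genes, the cluster is called by its number. Only 1.53% of its cells had Ly6d and 3.98% had Arpp21.

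Cluster 2 held 290 cells (24.9%) with a median of 14185 UMIs and stays unnamed. Its leading genes were the granule protease gene Prtn3 at 281 CPM against 24.2 CPM in the other rule cells, the myeloid and lymphoid master factor Spi1 (PU.1) at 157 against 17.4 CPM, the chemokines Ccl4 at 156 against 23.0 CPM and Ccl3 at 103 against 22.7 CPM, and Alox5ap, a leukotriene synthesis protein, at 218 against 69.8 CPM. Of 16 early lymphoid markers, Adgrg1, Mef2c, Notch1 and Bcl11a were raised. Of 10 plasmacytoid dendritic markers, Irf8, Bst2 and Runx2 were raised too. Ly6d had a UMI in 24.8% of its cells and Arpp21 in 18.97%.

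Cluster 3, with 162 cells (13.9%), was the early lymphoid progenitor-like one. It had 11 of 16 early lymphoid markers raised, among them the 4 rule genes and, apart from these, Satb1, Rag1, Rag2, Notch1, Ccr9 and Cd27. Over all 5880 genes with at least 10 CPM in the cluster 5.83% were raised. Mef2c went against the label, at 19.4 CPM in the cluster against 128 CPM in the other rule cells. Its leading genes were Insl5, a relaxin-family peptide, at 135 CPM against 12.2 CPM in the other rule cells, the granzyme gene Gzma at 783 against 84.6 CPM, the water channel Aqp11 at 150 against 27.4 CPM, Mzb1, a chaperone of antibody-secreting and marginal zone B cells, at 457 against 88.3 CPM, and Anxa2 at 328 against 68.2 CPM. From the T lineage list Bcl11b, Lck and Cd8a were raised as well. The cluster was recovered whole at a coarser clustering and to 99.4% at a finer one.

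The remaining 4 clusters were smaller. Cluster 4 (127 cells, 10.9%) was led by Nfkb1, an NF-kB subunit, at 222 CPM against 47.5 CPM and by Cldnd1 at 433 against 137 CPM, and 92.1% of its cells had Plac8 and no other rule gene. Cluster 5 (126 cells, 10.8%) was led by genes of dividing cells, such as the spindle protein Nusap1 at 287 against 37.5 CPM and the linker histone Hist1h1b at 540 against 94.6 CPM. It still held Ly6d in 22.2% and Arpp21 in 36.5% of its cells.

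Cluster 6 (83 cells, 7.12%) stood apart from lymphoid cells. Vamp5 was at 578 CPM against 8.66 CPM, the stem and erythroid cofactor Lmo2 at 161 against 5.96 CPM, the metallothionein Mt1 at 437 against 18.6 CPM and carbonic anhydrase Car2 at 200 against 10.9 CPM. Markers of several lineages were raised in it, among them Mpo and Lyz2 (myeloid), Gata1 and Epor (erythroid), Ms4a2 and Hdc (mast) and Pf4 and Itga2b (megakaryocyte). Il7r, whose protein CD127 the gate required, was at 12.1 CPM. Plac8 had a UMI in 92.8% and Adgrg1 in 69.9% of its cells. Cluster 7 (50 cells, 4.29%) had Plac8 and no other rule gene in 100% of its cells and interferon-induced genes in front, with Iigp1 at 121 against 0.58 CPM, Ly6a at 351 against 5.10 CPM and Gbp2 at 139 against 2.69 CPM, beside Ifng itself, the type II interferon gene, at 407 against 9.83 CPM. These cluster genes define the clusters and are given as a description.

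**Figure D2:**
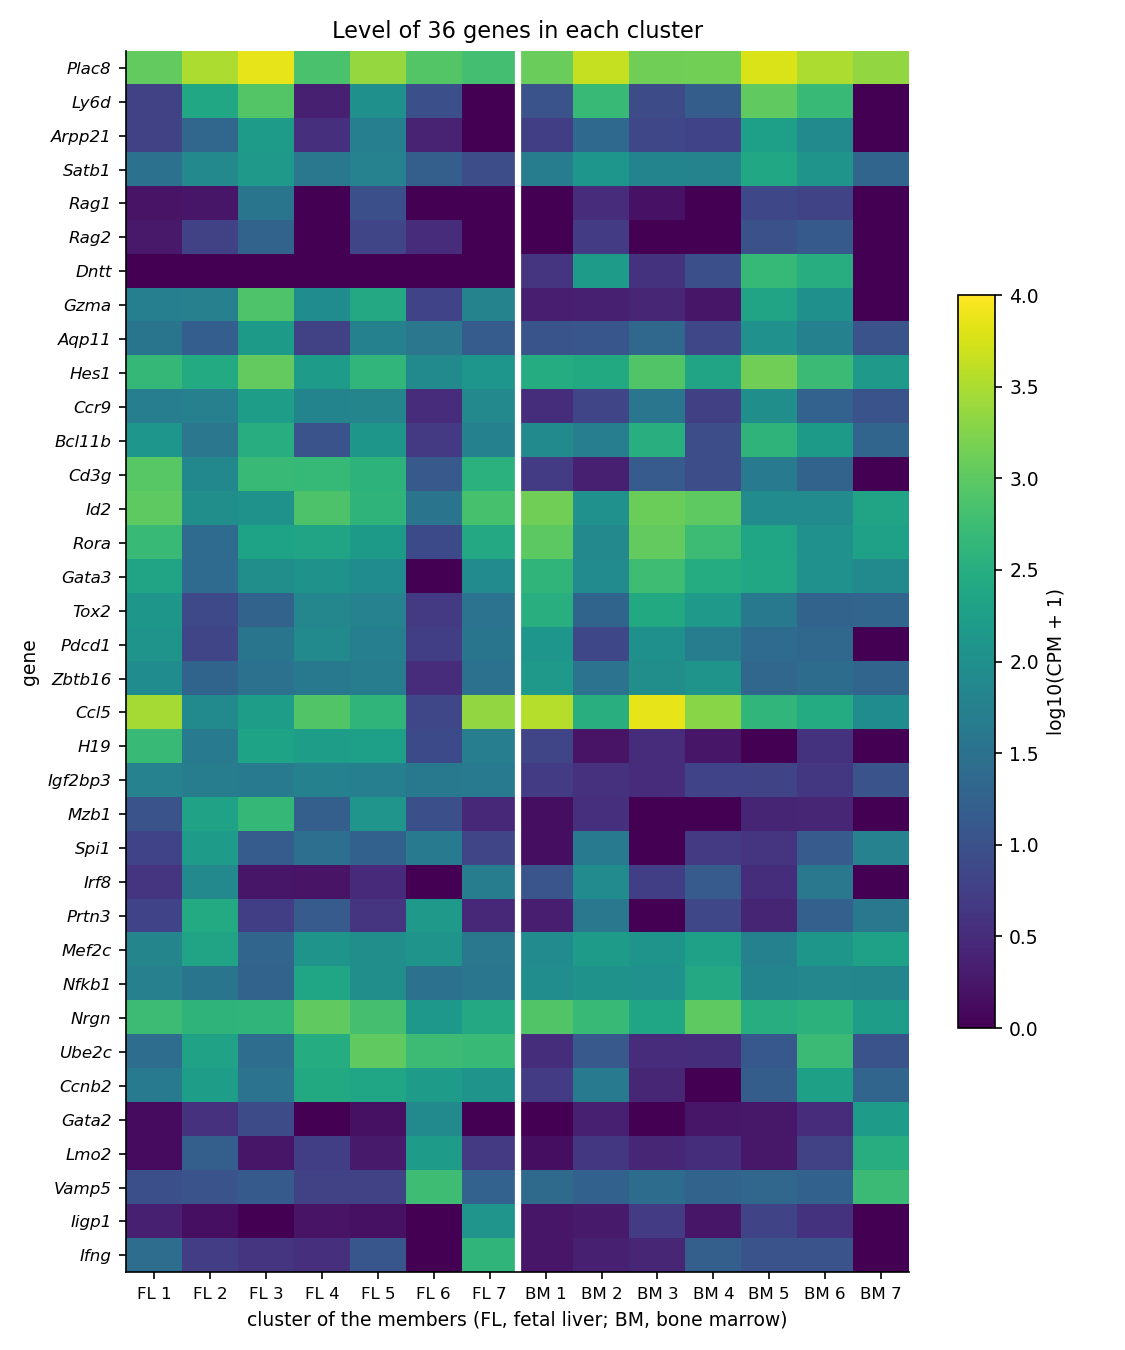
Heat map of log10(CPM + 1) for selected genes (down the page) in the 7 fetal liver clusters and then the 7 bone marrow clusters of rule cells. Dntt is at 0 in every fetal liver cluster and reaches 482 CPM in bone marrow cluster 5, while Rag1, Gzma and Mzb1 are high in fetal liver cluster 3.

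A bone marrow counterpart of usable size was found for 5 fetal liver clusters, by their having each other as the best match among their top 50 genes. Unlike the clustering, these top 50 could include rule and lineage genes, so the matches draw in part on genes that chose the cells. Shared genes of this kind were Ly6d, Arpp21 and Cpa3 for fetal liver cluster 3, Adgrg1 and Ly6d for cluster 2 and Rxrg for cluster 1. The early lymphoid progenitor-like cluster 3 shared 29 of 50 genes (58%) with bone marrow cluster 5 (254 cells), and the dividing cluster 5 shared 34 (68%) with bone marrow cluster 6 (185 cells). Cluster 1 shared 18 with bone marrow cluster 1 (517 cells), cluster 2 shared 17 with bone marrow cluster 2 (437 cells) and cluster 4 shared 17 with bone marrow cluster 4 (280 cells). Cluster 6 met only a 21-cell bone marrow cluster, which was too small to use, and the interferon cluster 7 had no counterpart. Genes at least 2-fold higher and lower in fetal liver made up 7.62% and 9.57% of those compared for the clusters 1, 5.32% and 7.98% for the clusters 2, 12.6% and 15.6% for the clusters 4, and 6.24% and 8.34% for the dividing pair.

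The early lymphoid progenitor-like clusters were compared first for the rearrangement genes. Dntt, at chr19:41029275-41059525 on the plus strand of mm10, had 0 UMIs in the 162 fetal liver cells, which allows a share of up to 1.85%, against 482 CPM and a UMI in 74.4% of bone marrow cells (62.4% after thinning), at least 215-fold lower against a floor of 3 counts. Rag1, the recombinase subunit at chr2:101638282-101649501 on the minus strand, was at 35.1 CPM in fetal liver cluster 3 against 6.30 CPM in bone marrow cluster 5, with a log2 ratio of 2.48 (1.38 to 3.77). Rag1 had a UMI in 19.1% of the fetal liver cluster and 2.76% of the bone marrow cluster (12.1% and 1.88% after thinning). Its partner Rag2 was at 17.9 against 8.67 CPM (log2 1.05, −0.03 to 2.23), an interval that includes no difference. Dntt and Rag1 thus lay in opposite directions in this pair.

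Gzma, at chr13:113093825-113100981 on the minus strand, was at 783 CPM in fetal liver cluster 3 against 214 CPM in bone marrow cluster 5 (log2 1.87, 1.68 to 2.07). This gene of cytotoxic cells ranked first among the leading genes of the bone marrow cluster and second in the fetal liver cluster. Over all fetal liver rule cells thinned to equal depth, 25 cells had a Rag1 UMI and 60% of these also had Gzma, against 11.6% of the cells without Rag1. Of these 25 cells 19 were in cluster 3, where 45.2% of all thinned cells had Gzma, so the contrast largely follows the cluster. Likewise 239 cells had an Mzb1 UMI, 93 of them in cluster 3, and 30.1% of the 239 had Gzma, against 8.05% of the others. In fetal liver LTi or ILC3 cells, which served as a level of background, Gzma had a UMI in 0.722% and Mzb1 in 0.903% of thinned cells. The share of NK or ILC1 cells with Gzma was not counted. Against the whole rest of fetal liver, which holds those cells, Gzma was within 2-fold in the rule cells.

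Gzma, Aqp11 and Rag1 were high together in fetal liver cluster 3, and Dntt had no UMI there. Gzma and Aqp11 were also among the leading genes of bone marrow cluster 5. Aqp11 was within 2-fold between this pair, at 150 CPM in fetal liver against 106 CPM in bone marrow (log2 0.51). The promoters of these 4 genes are printed. Each is 300 bases, from 250 before to 50 after the RefSeq start, 5′ to 3′ on the gene's strand in GRCm38.p6, with E-boxes (CANNTG, searched on both strands with overlaps allowed) in capitals. The windows are chr13:113100932-113101231 (minus) for Gzma, chr7:97738198-97738497 (minus) for Aqp11, chr2:101649483-101649782 (minus) for Rag1 and chr19:41029025-41029324 (plus) for Dntt.
Gzma: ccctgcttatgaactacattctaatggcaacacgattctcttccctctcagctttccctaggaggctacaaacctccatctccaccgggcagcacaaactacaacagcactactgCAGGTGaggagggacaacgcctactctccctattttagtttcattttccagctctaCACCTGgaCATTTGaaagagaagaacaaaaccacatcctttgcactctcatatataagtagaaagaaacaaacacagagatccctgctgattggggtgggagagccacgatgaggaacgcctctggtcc
Aqp11: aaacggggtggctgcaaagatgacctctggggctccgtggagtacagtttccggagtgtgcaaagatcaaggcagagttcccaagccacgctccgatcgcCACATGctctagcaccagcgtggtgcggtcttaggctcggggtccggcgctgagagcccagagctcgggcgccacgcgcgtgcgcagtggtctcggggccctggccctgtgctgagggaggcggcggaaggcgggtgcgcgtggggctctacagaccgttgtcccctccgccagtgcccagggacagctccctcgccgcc
Rag1: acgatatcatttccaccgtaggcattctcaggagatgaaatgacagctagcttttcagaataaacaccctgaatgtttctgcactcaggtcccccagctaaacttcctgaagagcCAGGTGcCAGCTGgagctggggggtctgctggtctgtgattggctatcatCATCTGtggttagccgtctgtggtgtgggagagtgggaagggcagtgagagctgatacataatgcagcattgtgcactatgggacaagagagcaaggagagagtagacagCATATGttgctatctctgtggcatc
Dntt: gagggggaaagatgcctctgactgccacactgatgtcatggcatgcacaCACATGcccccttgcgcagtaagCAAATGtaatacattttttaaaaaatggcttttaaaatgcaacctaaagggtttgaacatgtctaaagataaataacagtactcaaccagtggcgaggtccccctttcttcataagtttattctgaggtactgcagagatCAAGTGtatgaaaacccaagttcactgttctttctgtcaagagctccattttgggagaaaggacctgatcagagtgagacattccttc
Gzma held 3 E-boxes, Aqp11 1, Rag1 4 and Dntt 3. Counting both strands, 2 of the E-boxes of Gzma and 1 of Rag1 read CACCTG, 1 of Rag1 read CAGCTG, and Aqp11 and Dntt held neither form. Over all 32851 promoters of the same table, 72.3% held CANNTG, 16.3% CAGCTG and 20.2% CACCTG. A match is only a description of these letters.

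Among other genes of the early lymphoid pair some were level and some far apart. Il7r was at 179 CPM in fetal liver cluster 3 and 181 CPM in bone marrow cluster 5, Cd27 at 138 and 141 CPM, the T cell kinase Lck at 159 and 161 CPM, and the Notch target Hes1 at 1109 and 1353 CPM. Notch1 was at 58.3 against 29.9 CPM (log2 0.96) and the thymus-homing receptor Ccr9 at 170 against 96.9 CPM (0.81). Satb1 was at 138 against 247 CPM (−0.83) and Mef2c at 19.4 against 56.7 CPM (−1.55). Mzb1 was at 457 against 1.58 CPM (8.18) and Cd3g, a CD3 chain of the T cell receptor complex, at 500 against 44.9 CPM (3.48). Ly6d and Arpp21, rule genes and so a description, were at 845 and 153 CPM in fetal liver, against 1052 and 180 CPM in bone marrow. Over all 7010 genes compared in this pair, 7.59% were at least 2-fold higher and 9.36% at least 2-fold lower in fetal liver.

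Over all rule cells 6779 genes reached 10 CPM in at least 1 tissue, and 314 of them were 2-fold or more higher in fetal liver (4.63%) and 569 were 2-fold or more lower (8.39%). The median log2 ratio over all genes was 0.04. Apart from the X-linked RNA Xist, the largest differences at 50 CPM or more were Mzb1 at 123 CPM in fetal liver against 1.16 CPM in bone marrow (log2 6.72, 5.97 to 7.60), the imprinted RNA H19 at 200 against 2.24 CPM (6.48, 5.94 to 7.09) and the antiviral membrane protein gene Ifitm1 at 847 against 21.4 CPM (5.31, 5.13 to 5.49). Cd3g followed at 401 against 11.3 CPM (5.15, 4.90 to 5.41), then the lipid carrier Apoe at 259 against 11.2 CPM (4.53), Igf2bp3 at 50.3 against 3.74 CPM (3.75), Tnfrsf9 at 54.0 against 4.07 CPM (3.73), Ifitm3 at 120 against 11.8 CPM (3.35) and the tropomyosin Tpm2 at 81.1 against 10.1 CPM (3.01). On the low side Dntt had 0 UMIs against 143 CPM, Cpne2, a calcium-binding copine, was at 1.05 against 104 CPM (−6.63), Bcas1 at 4.00 against 136 CPM (−5.08), the chromatin remodeller Chd3 at 6.25 against 131 CPM (−4.39), Serpine2, a protease inhibitor, at 4.63 against 84.5 CPM (−4.19) and the lectin gene Clec2i at 5.97 against 80.7 CPM (−3.76). The MHC class I genes H2-Q4, H2-Q6 and H2-Q7 were also among the lowest (log2 −4.15, −6.22 and −6.17), but they are near-identical copies between which reads cannot be placed with certainty.

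**Figure D3:**
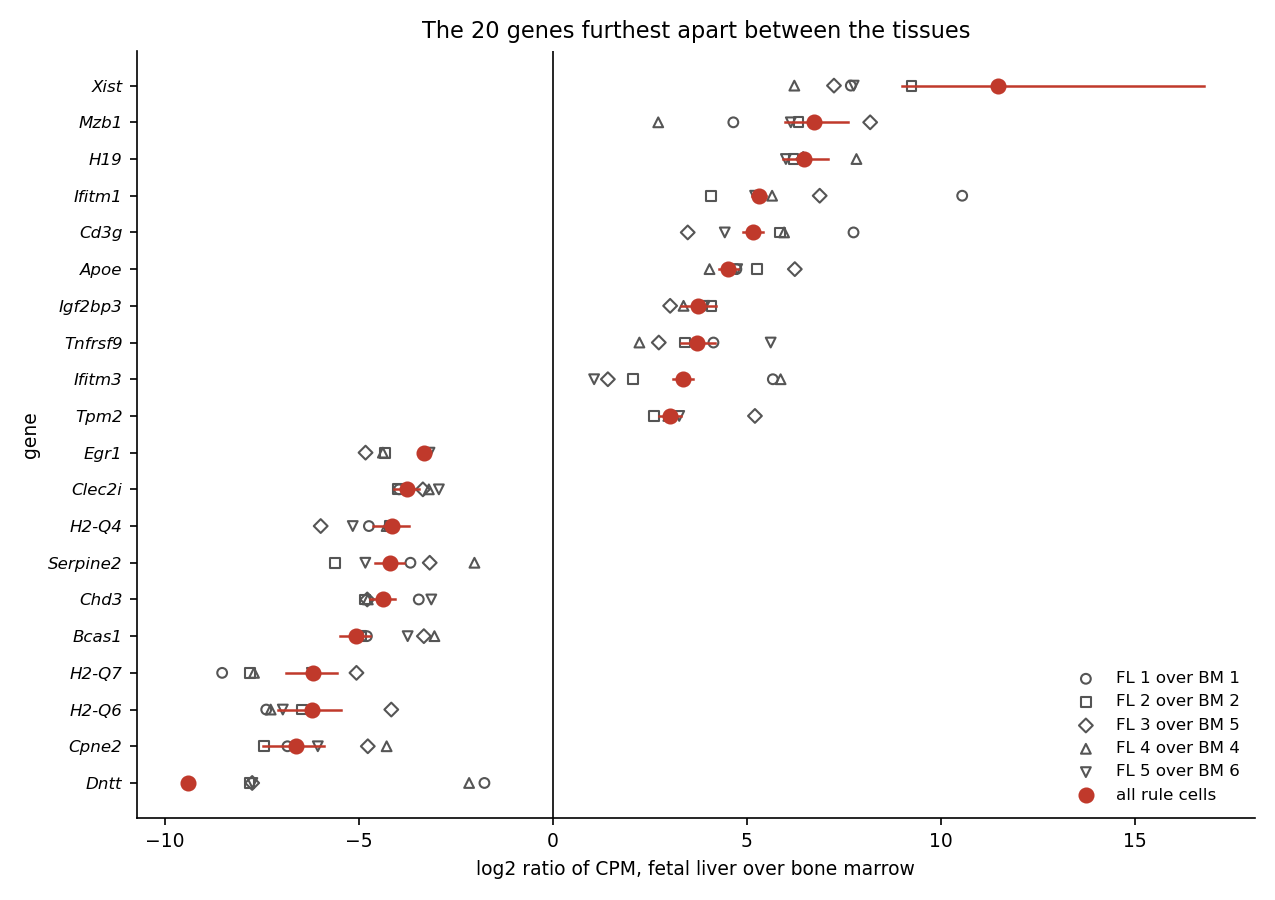
Log2 ratio of fetal liver rule cells over bone marrow rule cells (x axis) for the named genes, red with exact 95% counting intervals, with the 5 matched cluster pairs as open symbols. Genes with 0 UMIs in 1 group, Dntt among them, are drawn without a bar at a bound computed from 3 counts; Cd3g, H19 and Igf2bp3 lie right of 0 in every pair.

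Dntt was absent from the fetal liver rule cells as far as depth could show. None of 1165 cells had a UMI, which allows a share of up to 0.258%, whereas 25.9% of bone marrow rule cells had one (18.9% after thinning). The level was at least 678-fold lower in fetal liver against a floor of 3 counts over the group. Just 1 cell of all 8583 fetal liver cells had a Dntt UMI. In bone marrow the gene was concentrated in clusters 5 (482 CPM), 6 (315 CPM) and 2 (163 CPM), and the matching fetal liver clusters were all at 0. Rag1 and Rag2 were below 10 CPM over all rule cells, at 4.84 and 4.35 CPM in fetal liver against 2.16 and 3.82 CPM in bone marrow.

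Transcription factors of lymphoid progenitors divided. Measured genes of a list are those with at least 10 CPM in either tissue, 15 of 18 here, and summed levels cover whole lists. The shares to set beside each list compared between the tissues are those over all 6779 genes, 4.63% higher and 8.39% lower. Of the 15, Spi1, Runx1 and Lmo2 reached 2-fold upward in fetal liver and Ikzf3, Ets1 and Lef1 2-fold downward, with a list median of −0.44. Spi1, at chr2:91082390-91115756 on the plus strand, was at 57.9 CPM in fetal liver against 15.5 CPM in bone marrow (log2 1.91, 1.67 to 2.14), and its thinned share was 11.4% against 2.93%. Runx1, the core factor of definitive blood formation, was at 112.4 against 46.5 CPM (1.27), and Lmo2 at 20.4 against 4.99 CPM (2.03), and within fetal liver it was highest in cluster 6; without dividing cells its ratio was −1.30. Ets1, a factor of T and NK cell development, was at 61.3 against 134 CPM (−1.13) and Lef1, a partner of TCF-1 in T and ILC development, at 3.02 against 21.2 CPM (−2.81). The ratio of Spi1 also held between the matched clusters 2 at 157 against 45.5 CPM (1.79).

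E proteins and their inhibitors were measured for 6 genes. Id1 was at 17.8 CPM in fetal liver against 6.23 CPM in bone marrow (log2 1.52) and Id3 at 20.6 against 5.07 CPM (2.02). Id2, at chr12:25093799-25097140 on the minus strand and by far the most abundant, was at 445 against 639 CPM (−0.52). Among E proteins Tcf4 (E2-2) was at 40.8 against 101 CPM (−1.31) and Tcf3 (E2A) at 53.5 against 62.1 CPM (−0.22). Id2 divided the fetal liver rule cells: of 567 thinned cells with an Id2 UMI, 71.4% had Cd3g, 7.05% Mzb1 and 3.53% Ly6d, against 40.5%, 35.2% and 17.8% of the cells without Id2.

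Several factors of the innate lymphoid branch were lower in fetal liver. Of 11 measured ILC progenitor genes, Tox, Tox2, Gata3, Rora and Il18r1 were at least 2-fold lower and Arg1 was at least 2-fold higher, with a median of −0.87. Gata3, required for ILC2 and T cells, was at 93.9 CPM in fetal liver against 271 CPM in bone marrow (−1.53), Rora, an ILC2 factor, at 200 against 496 CPM (−1.31), Tox, needed for the ILC lineage, at 75.9 against 166 CPM (−1.13), and the IL-18 receptor chain Il18r1 at 15.6 against 109 CPM (−2.80). Zbtb16 was at 40.8 against 71.0 CPM (−0.80). Arg1, the arginase of ILC progenitors and ILC2, was at 74.0 against 30.3 CPM (1.29). Between the matched clusters 1, which carried most of these genes, the gaps were smaller than 2-fold for most of them, with Gata3 at 215 against 419 CPM (−0.96), Rora at 509 against 992 CPM (−0.96), Tox at 137 against 260 CPM (−0.93) and Id2 at 1028 against 1356 CPM (−0.40).

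CD3 chains were the main exception in the T lineage and Notch list. Of 11 measured genes Cd3d and Cd3g were at least 2-fold higher and Notch2 and Gata3 at least 2-fold lower, with a median of −0.47. Cd3g, at chr9:44969572-44980431 on the minus strand, had a UMI in 75.1% of fetal liver rule cells against 4.74% in bone marrow. After thinning the shares were 56.7% and 2.99%. Among other thinned fetal liver cells it was 23.5% in those with none of the sums, 4.69% in LTi or ILC3 and 4.02% in B lineage cells. Cd3d was at 39.2 CPM in fetal liver against 4.49 CPM in bone marrow (3.13), while Cd3e was below 10 CPM in both tissues, at 3.23 against 0.582 CPM. Against the rest of fetal liver both Cd3g and Cd3d were within 2-fold. Cd3g was highest in cluster 1, at 911 CPM against 4.23 CPM in bone marrow cluster 1, with a UMI in 99.1% against 1.93% of cells. Its log2 ratio spanned 3.48 to 7.75 over the 5 matched pairs. Notch1 was level, at 24.3 and 23.9 CPM, as was Hes1 at 382 and 504 CPM (−0.40), and Bcl11b, a T and ILC2 commitment factor, was at 90.0 against 144 CPM (−0.67).

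Surface receptors were lower more often than higher in fetal liver, as were all genes compared (8.39% at least 2-fold lower and 4.63% higher). Of 15 measured, Ccr9 alone was at least 2-fold higher, at 62.8 CPM against 20.7 CPM in bone marrow (1.60). At least 2-fold lower were 5, among them the marrow-retention receptor Cxcr4 at 6.74 against 33.1 CPM (−2.30), Cd24a at 44.6 against 209 CPM (−2.23), Cd93 at 5.75 against 24.3 CPM (−2.08) and Cd96 at 11.7 against 24.5 CPM (−1.07). Genes of the gate itself were nearer, with Il7r at 120 against 237 CPM (−0.98) and the α4 chain gene Itga4 at 274 against 303 CPM (−0.14). Flt3, which the gate excluded at the surface, was at 4.21 against 1.91 CPM. Of 14 genes of stem and multipotent cells 9 were measured, of which 4 were at least 2-fold lower and 5 within 2-fold (median −0.85, against 0.04 over all genes), Hlf being at 2.46 against 17.1 CPM (−2.80), Hoxa9 at 0.912 against 12.0 CPM (−3.71) and the niche factor gene Angpt1 at 19.7 against 47.8 CPM (−1.28).

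The fetal Lin28b programme and imprinted growth genes were the lists with the largest medians. Of 6 measured genes of the first (8 listed), 5 reached 2-fold upward (median 3.82), and their summed level was 230 CPM against 38.1 CPM in bone marrow. Igf2bp1 was at 23.8 CPM against 0 of 2047 bone marrow cells, where up to 0.147% is allowed, so it was at least 95.4-fold higher. Igf2bp3, at chr6:49085223-49214957 on the minus strand, Igf2bp2 (10.04 against 0.332 CPM), the chromatin protein Hmga2 (83.9 against 13.6 CPM) and the fetal B cell factor Arid3a (44.6 against 2.99 CPM) were the others. Lin28b itself was below 10 CPM, at 7.37 against 0.0831 CPM.

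The 4 imprinted genes of 10 that reached 10 CPM were all at least 2-fold higher (median 4.69, summed level of the list 314 CPM against 11.1 CPM), with H19 at chr7:142575529-142578143 on the minus strand, Dlk1 at 45.1 against 0.416 CPM, Igf2 at 22.3 against 2.99 CPM and the CDK inhibitor Cdkn1c at 29.8 against 4.32 CPM. H19 had a UMI in 34.2% of thinned fetal liver rule cells against 0.480% in bone marrow. Among other thinned fetal liver cells it had a UMI in 17.2% of B lineage cells, 7.05% of cells with none of the sums and 1.08% of LTi or ILC3 cells. Over the 5 matched pairs the medians spanned 3.09 to 4.09 for the Lin28b programme and 4.05 to 5.57 for the imprinted genes. The hormone gene Cck was at 35.1 CPM in fetal liver rule cells and had no UMI in bone marrow, at least 141-fold higher.

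**Figure D4:**
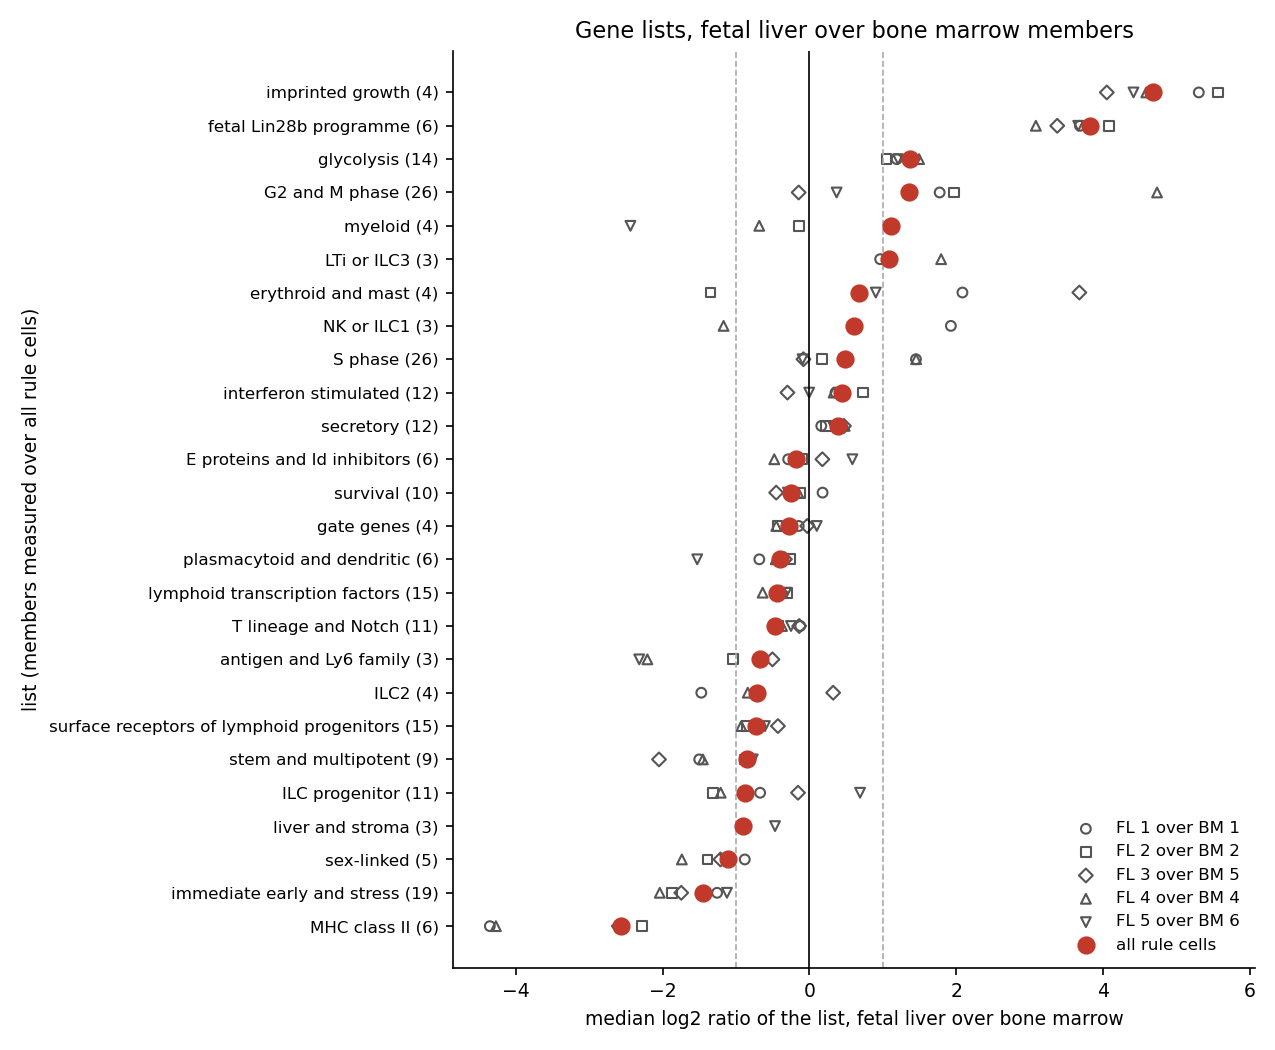
Median log2 ratio of each gene list for fetal liver rule cells over bone marrow rule cells (red) and for the 5 matched cluster pairs (open symbols), dashed lines marking 2-fold. The Lin28b programme (3.82) and imprinted growth (4.69) lie to the right and MHC class II (−2.57) to the left, whereas G2 and M phase (1.36) spreads from −0.15 to 4.74 over the pairs.

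MHC class II and immediate early genes were lower in fetal liver. The 6 MHC class II genes of 7 that reached 10 CPM were at least 2-fold lower (median −2.57), with a summed level of 40.4 CPM against 236 CPM in bone marrow. The invariant chain Cd74 was at 13.5 against 87.8 CPM (−2.70) and H2-Aa at 1.75 against 33.7 CPM (−4.26). Of 19 immediate early genes 15 were at least 2-fold lower (median −1.45), Fos being at 274 against 1763 CPM (−2.69, −2.74 to −2.64), Jun at 501 against 1274 CPM (−1.35) and Egr1 at 30.0 against 298 CPM (−3.31). Survival genes did not move as a group: of 10 measured, 8 were within 2-fold (median −0.25). Bcl2, the mitochondrial death inhibitor, at 66.5 against 430 CPM (−2.69), and Birc2, a ubiquitin ligase, at 61.3 against 141 CPM were the ones at least 2-fold lower. Egr1, Fos and Bcl2 were lower in all 5 matched pairs, at log2 −4.83 to −3.18, −3.55 to −1.67 and −2.84 to −1.43.

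Most glycolysis genes were higher in the fetal cells. Of 14 measured, 9 reached 2-fold upward and 1 downward (median 1.37), with a summed level of 5363 CPM against 2303 CPM in bone marrow. Examples were pyruvate kinase Pkm at 386 CPM against 112.5 CPM (1.78), lactate dehydrogenase Ldha at 735 against 267 CPM (1.46) and the lactate exporter Slc16a3 at 12.98 against 1.16 CPM (3.48). Hexokinase Hk2, which starts the pathway, went the other way at 39.6 against 210 CPM (−2.40). The median spanned 1.05 to 1.49 over the 5 matched pairs.

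Cell division differed between the tissues. At least 1 UMI of Mki67, Top2a, Cdk1, Ube2c or Birc5 was found in 69.4% of fetal liver rule cells and 25.6% of bone marrow rule cells, or 45.7% (42.8 to 48.7) and 18.9% (17.2 to 20.8) after thinning. Genes of G2 and M phase reached 2-fold upward for 17 of 26 measured (median 1.36), such as cyclin B1 Ccnb1 at 38.4 against 8.73 CPM (2.14) and the mitotic kinase Plk1 at 20.1 against 5.15 CPM (1.97), whereas none of 26 S phase genes reached 2-fold either way (median 0.49). By cluster the thinned share ran from 19.9% in cluster 1 and 22.9% in cluster 3 to 60.3% in cluster 4, 70.1% in cluster 6 and 96.0% in cluster 5. The matched bone marrow clusters had 3.62% (cluster 1), 21.8% (cluster 2), 21.1% (cluster 5), 2.39% (cluster 4) and 96.7% (cluster 6). The early lymphoid pair was thus alike in this measure, at 22.9% against 21.1%, and its G2 and M phase median was −0.15. In the other pairs the share of dividing cells was higher or the same in fetal liver, and its part in the results was not tested.

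**Figure D5:**
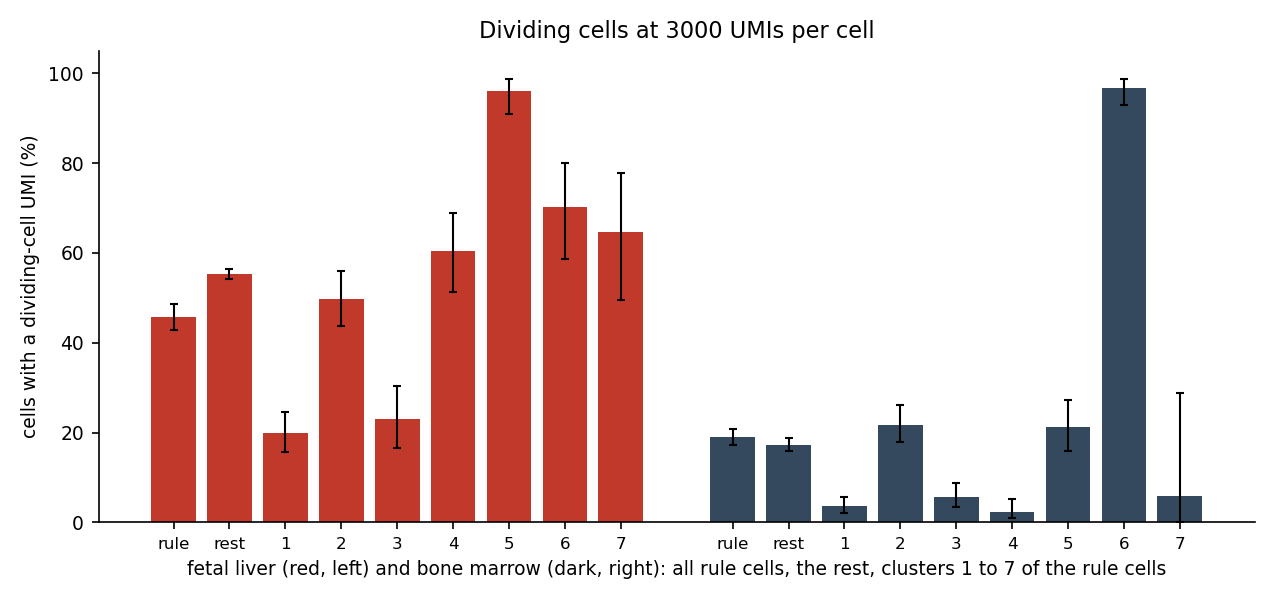
Percent of cells with at least 1 UMI of Mki67, Top2a, Cdk1, Ube2c or Birc5 after thinning to 3000 UMIs, fetal liver on the left (red) and bone marrow on the right (dark), for rule cells, the rest and clusters 1 to 7, bars being exact binomial 95% intervals. Fetal liver rule cells are at 45.7% and their rest at 55.2%, bone marrow rule cells at 18.9% and their rest at 17.3%.

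Markers of other cell types were summed over the rule cells as well. The 12 B lineage genes summed to 61.3 CPM in fetal liver rule cells against 33.6 CPM in bone marrow rule cells, and only Cd79b reached 10 CPM. The 13 liver and stroma genes summed to 61.8 CPM against 108 CPM. Of its hepatocyte genes Alb had no UMI in either tissue, Ttr had 1 UMI in fetal liver and none in bone marrow, Afp was at 2.39 against 4.32 CPM and Apoa2 at 4.00 against 2.58 CPM. By cluster the 7 hepatocyte markers summed to 12.7 to 26.3 CPM in fetal liver, with Apoa2 raised in cluster 7, and to 9.45 to 36.99 CPM in bone marrow. The level of free RNA was not estimated. The 13 myeloid genes summed to 879 CPM against 976 CPM, with Prtn3 at 98.8 against 14.2 CPM (2.80) and Mpo at 15.6 against 2.66 CPM (2.55). The 12 erythroid and mast genes summed to 235 CPM against 296 CPM, with Gata1 at 16.6 against 0.997 CPM (4.05). NK or ILC1 genes summed to 180 CPM against 93.1 CPM, of which Gzma gave 150 CPM of the fetal liver sum and 38.4 CPM of the bone marrow sum, while Xcl1 was at 1.75 against 22.4 CPM (−3.67). LTi or ILC3 genes summed to 156 CPM against 110 CPM, with Lta at 19.4 against 3.57 CPM (2.44). ILC2 genes summed to 70.7 CPM against 117 CPM, and the 12 plasmacytoid and dendritic genes to 397 CPM in each tissue, although Mzb1 is among them. The part of such cells in the results over all rule cells was not tested.

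Interferon-stimulated genes were mixed. Of 12 measured, Ifitm1, Ifitm2 and Ifitm3 reached 2-fold upward in fetal liver and Ifit1, Isg15 and Ifi203 2-fold downward (median 0.44), although Ifit1 turned to 0.42 when Plac8 was left out of the rule. Ifitm1 and Ifitm2 were highest in cluster 1, where Ifitm1 was at 1732 CPM and had 0 UMIs in bone marrow cluster 1, and Ifitm2 was at 762 against 6.15 CPM (6.95). Ifitm2 was not higher in every pair, its log2 ratio spanning −0.57 to 6.95. Secretory genes included Mzb1, Jchain, the joining chain of secreted antibodies, at 23.6 against 0.332 CPM (6.15), and the disulfide isomerase Pdia6 (1.05), 3 of 12 measured that were at least 2-fold higher.

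Against the other 7418 fetal liver cells the rule fixed part of the result, since it removed cells rich in ILC, NK, B and myeloid genes. Of 6507 genes, 2.24% were at least 2-fold higher and 4.09% at least 2-fold lower in the rule cells. Besides the rule genes Plac8, Adgrg1, Ly6d and Arpp21, the largest were Spi1 at 57.9 CPM in rule cells against 13.99 CPM in the rest (2.05), Fbxw4 at 59.0 against 18.3 CPM (1.69), the troponin gene Tnni1 (1.64), Alox5ap at 113 against 37.9 CPM (1.57), Tsc22d1 (1.52), Ddah2 at 53.7 against 19.02 CPM and Ifi27 (1.39). Of 15 lymphoid transcription factors Spi1, Mef2c, Satb1, Myb and Lyl1 were at least 2-fold higher and Ikzf3 lower (median 0.64), with Mef2c at 118 against 46.8 CPM (1.34), Satb1 at 56.8 against 22.8 CPM (1.32) and Myb at 81.7 against 35.5 CPM (log2 1.201). Notch1 was at 24.3 against 10.7 CPM (1.18). The lowest genes were Il22 at 2.32 against 148 CPM, Klrd1 at 10.7 against 400 CPM, S100a8, Hbb-bs and Lta, and the first 2 of these were in the rule. Igf2bp3 was level at 50.3 and 47.3 CPM (0.09), whereas H19 was at 200 against 79.9 CPM (1.33). The G2 and M phase median was −0.30. In bone marrow, the same comparison of rule cells with the rest gave 2.49% of genes at least 2-fold higher and 4.79% lower.

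Set against the 177 fetal liver B lineage cells, the rule cells differed by the innate and T programme. Of 6578 genes 8.32% were at least 2-fold higher and 5.2% at least 2-fold lower. All 11 measured ILC progenitor genes were at least 2-fold higher (median 3.77), as were 7 of 11 T lineage and Notch genes (median 2.38). Ccl5 was at 938 CPM in rule cells against 16.3 CPM in B lineage cells (5.84), Cd3g at 401 against 10.5 CPM (5.25), Apoe at 259 against 8.43 CPM (4.94), the regulatory factor Ikzf2 at 197 against 7.38 CPM (4.74) and Id2 at 445 against 32.1 CPM (3.79). Rag1 was at 4.84 against 48.5 CPM (−3.32), Mzb1 at 123 against 1396 CPM (−3.51) and Ly6d at 167 against 1130 CPM (−2.76). These ratios are over all rule cells, most of them outside cluster 3. In cluster 3 itself Rag1 was at 35.1 CPM and Mzb1 at 457 CPM, nearer to the B lineage cells but still below them. Plac8 was close, at 2373 and 2716 CPM (−0.20). Igll1, Vpreb3, Cd79a, Ebf1 and Vpreb1 were the lowest, and all 5 were limited by the rule.

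Against the 2576 fetal liver cells that met none of the sums, Mzb1 was at 123 CPM in rule cells and 1.41 CPM in those cells (6.44), Gzma at 150 against 10.6 CPM (3.83), Spi1 at 57.9 against 2.60 CPM (4.48), Alox5ap at 113 against 8.48 CPM (3.73), Bcl11b at 90.0 against 22.7 CPM (1.99) and Hes1 at 382 against 107 CPM (1.84). The lowest were S100a9 at 0.281 against 192 CPM (−9.42), S100a8 at 1.40 against 215 CPM (−7.26), Hbb-bs at 3.72 against 390 CPM (−6.71) and Lta at 19.4 against 703 CPM (−5.18). Of 6651 genes 3.8% were at least 2-fold higher and 6.81% lower. Lymphoid transcription factors had 7 of 15 at least 2-fold higher and 4 lower (median 0.83). These cells were not free of lineage genes: LTi or ILC3 genes summed to 156 CPM in rule cells against 1849 CPM in cells with none of the sums, and erythroid and mast genes to 235 against 868 CPM.

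Embryos of both sexes were in the fetal liver library and bone marrow held no cell with Xist alone. Of the fetal liver rule cells 467 (40.1%) had Xist and no Y-linked UMI, 435 (37.3%) the reverse, 22 both and 241 neither, whereas bone marrow rule cells included 1138 (55.6%) with only Y-linked UMIs and none with Xist alone. The rule took 13.5% (12.4 to 14.7) of Xist-only and 16.5% (15.1 to 18.0) of Y-only fetal liver cells. Between Y-only cells of both tissues, H19 was at 220 CPM in fetal liver against 2.68 CPM in bone marrow (6.36), Mzb1 at 93.0 against 1.27 CPM (6.20), Cd3g at 388 against 11.4 CPM (5.09), Gzma at 141 against 31.4 CPM (2.16) and Spi1 at 61.6 against 16.9 CPM (1.87), and Dntt was at 0 against 131 CPM. Over all rule cells the ratios of H19, Mzb1, Cd3g, Gzma and Spi1 were 6.48, 6.72, 5.15, 1.97 and 1.91. Other genes moved further in Y-only cells, such as Lta from 2.44 to 1.43 and Id3 from 2.02 to 2.83. The part of sex in the tissue differences was not tested. Within fetal liver Pf4, a platelet chemokine, was at 22.5 CPM in Xist-only and 1.61 CPM in Y-only rule cells. Among the fetal liver clusters Pf4 was raised only in cluster 6 (83 cells), so this gap is not read as a sex difference of lymphoid progenitors.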

How the data were processed

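Mouse α4β7-expressing progenitors sorted from fetal liver and bone marrow, 1 library per tissue, were counted per gene and cell. Per the labels, Chromium Single Cell 3′ v2 libraries were sequenced on an Illumina NovaSeq instrument. Their UMIs had been counted, and barcodes without cells removed, before deposit. The deposited values are UMI counts, with software 3.0.1 and format 2 named in the file headers; mm10 and Seurat 4.0 are named in the submitters' processing notes, and no source used here names the aligner. The deposited barcode and gene tables hold other content, names only.

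Cells with at least 500 genes and at most 10% mitochondrial UMIs were kept. Doublets were not called or removed; leaving out the 5% of cells with the most UMIs is among the alternatives. Raw counts were summed per group and given as CPM, the fold as a log2 ratio of CPM with an exact conditional binomial 95% interval, and genes at 0 as a bound from 3 counts. A gene was compared with at least 10 CPM in the higher group, and a list is described by its genes past 2-fold and its median. Shares carry exact (Clopper-Pearson) intervals, and the limit on a share of 0 is 3 counts over the number of cells. Intervals and floors cover counting error only, and no p-value was computed because each tissue has 1 library. Clusters came from Leiden clustering (resolution 0.5, Scanpy 1.11.5, leidenalg 0.10.2, Python 3.11.15) of each tissue's rule cells without the rule and lineage genes; a marker was raised at 10 CPM and 2-fold over the other rule cells. The scripts were tested on simulated data.

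The members and gene lists were chosen with earlier results of these data known. Genes are named by rank within each comparison (at least 50 CPM, or 100 CPM in the clusters and against B lineage cells), by the 4 largest ratios of each list, and as rule or sex genes; others were named after their values were seen, as were the matched clusters and the cells with none of the sums. A planned comparison with PLZF-expressing cells held 14 fetal liver cells and was not made. Results of some genes of the lists are not reported here. Of 27998 gene IDs, 27645 matched GENCODE M21, which gave the mm10 positions, and promoter sequences are from RefSeq (GRCm38.p6). Alternatives used edgeR 4.0.16 in R 4.3.3 for TMM factors only.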

Additional observations from a re-analysis of the deposited data

Results flagged for a closer look

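Tox2, an HMG-box factor of NK cells and ILCs, differed in direction between matched clusters. In the dividing cells it was at 57.7 CPM in fetal liver cluster 5 against 17.6 CPM in bone marrow cluster 6, a log2 ratio of 1.71 (1.13 to 2.33). In the cells with the most ILC progenitor genes it was at 132 CPM in fetal liver cluster 1 against 317 CPM in bone marrow cluster 1, a log2 ratio of −1.27 (−1.44 to −1.10). The difference between these ratios was not tested, since each tissue has 1 library. The paired clusters also differed in other ILC progenitor genes. The 8 ILC progenitor markers, Tox2 among them, summed to 664 CPM in fetal liver against 261 CPM in bone marrow in the dividing pair. In the clusters 1 they summed to 1580 against 2430 CPM, so Tox2 went the way of this sum in both pairs. In the dividing pair Id2 had a UMI in 43.2% against 15.3% of thinned cells.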

How the results depend on the processing

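Over 18 alternatives, 17 of them planned, 92 list medians and gene ratios that were at least 2-fold were followed, and 6 of them changed sign. Medians spanned 3.0 to 3.95 for the Lin28b programme, 2.53 to 6.48 for imprinted genes, −3.55 to −2.21 for MHC class II, 1.12 to 1.42 for glycolysis, −1.57 to −1.33 for immediate early genes and 0.40 to 1.98 for G2 and M phase. The share of cells meeting the rule (13.6% in fetal liver, 28.2% in bone marrow) was 15.5% and 34.3% with a marker sum of at least 2, 11.3% and 20.7% with at least 5, 3.17% and 5.22% (272 and 379 cells) without Plac8, 15.9% and 38.6% after thinning, and 16.5% and 34.8% in cells with only Y-linked UMIs. In bone marrow it was also 38.7% with at least 1000 genes, 26.4% without the 5% of cells with the most UMIs and 24.8% without dividing cells. Genes at least 2-fold higher or lower than in bone marrow (314 and 569) numbered 92 and 174 at 50 CPM or more and 622 and 926 with no minimum. Against the rest of fetal liver (146 and 266) they numbered 280 and 432 without Plac8, 29 and 91 at 50 CPM or more, and 296 and 449 with no minimum, and those higher numbered 352 after thinning and 276 without dividing cells. Signs turned without Plac8 for Ifit1 (0.42), Pf4 (4.67) and the rearrangement list (0.42, and 0.034 with no minimum), without the 5% of cells with the most UMIs for Pf4 (0.56), without dividing cells for Lmo2 (−1.30) and the myeloid list (−0.27, and −0.35 over matched clusters, chosen after seeing the data), and at 50 CPM or more for the sex-linked list (4.88). The cause was not tested. Without dividing cells 357 fetal liver and 1522 bone marrow rule cells remained. The fetal liver early lymphoid progenitor-like cluster was recovered to 100% and 99.4% at resolutions 0.3 and 0.8, but cluster 1 to 49.8% and cluster 2 to 62.1% at 0.8, and cluster 5 to 54.8% at both. Bone marrow clusters 1 and 2 were recovered to 51.5% and 51.3% at 0.8. At 0.3, 100% of fetal liver cluster 1 and 94.5% of cluster 4 lay in the same cluster of 447 cells. Bone marrow clusters 1, 3 and 4 likewise lay in the same cluster of 1143 cells (99.4%, 99.4% and 98.6%). The matched pairs of clusters 1 and 4 were thus not separate at the coarser setting. No paired analysis was possible because each tissue has 1 library and no result comes from a test.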
